A study of Mus musculus with 4 samples.

Results

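The comparison described here sets the liver of mice with combined loss of MET and EGFR signalling at day 10 against the liver of control mice at day 10. It takes 2 of the 4 arrays of the study, 1 treated and 1 control, and every value is treated minus control on the log2 scale of the array signal. All mice had the genotype Metff/ff:ERCre+/+, in which exon 16 of Met can be removed by a Cre recombinase that tamoxifen switches on throughout the body. The treated group, labelled delta MET + EGFRi, received tamoxifen intraperitoneally on 5 days in a row, in doses of 100 µl at 10 mg/ml. After 4 days of rest its feed held canertinib, which blocks the EGFR kinase, at a planned dose of 80 mg/kg/day. Control littermates were injected with corn oil only, rested for the same 4 days and received no canertinib. Treated livers were taken at 7 and 10 days of canertinib diet, and control livers 7 and 10 days after the rest. Effects of canertinib, of tamoxifen, of the Met deletion and of altered feeding therefore cannot be told apart. Liver samples were pooled for each array, and the number, age and sex of the animals are not given in the sources used here. With 1 array per side no test is possible, and the difference between the 2 control arrays (day 10 minus day 7) serves as the only measure of how far arrays of like livers differ.

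MET is the receptor of hepatocyte growth factor and EGFR that of epidermal growth factor and related ligands. Both are receptor tyrosine kinases on hepatocytes that act through ERK, AKT and STAT3 and are known for their part in liver regeneration and hepatocyte survival. The injured or inflamed liver makes acute phase proteins under interleukin 6 and interleukin 1, while many genes of drug, bile acid and steroid metabolism are known to be lower in that state.

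The liver label was borne out by the arrays. Albumin (Alb) read 75758, 71295, 78532 and 74100 signal units on the control day 7, control day 10, treated day 7 and treated day 10 arrays, and signals are given in this order throughout. None of the 10 hepatocyte marker genes kept for analysis differed 2-fold at day 10. The arrays held 18193 named genes, of which 11993 were bright enough to be kept, with a mean log2 signal above that of 204 units. Signals under a floor of 64.7 units, the 25th percentile of all values, were raised to it, and a fold against a floored array is given as "at least".

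Met itself read 975.5, 1270.8, 2432.5 and 2828.7, so that both treated arrays lay above both controls, by 2.23-fold at day 10. A second probe set of Met differed by 0.34 (log2) at day 10. Where these probe sets lie relative to the deleted exon was not determined here, so they do not check the deletion. The brightest probe set of Egfr differed by -0.33, whereas its 5 other probe sets differed by 0.26 to 0.76, so that no direction is given for Egfr. Erbb3, a kinase-deficient partner of EGFR, differed by 0.36, and Erbb2 lay under the brightness filter. Of the 17 kept genes of MET and EGFR receptors, ligands and adaptors, Met alone was 2-fold higher at day 10, where 5.84% of all kept genes were, and their median difference was 0.16.

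At day 10, 700 of the 11993 kept genes (5.84%) were at least 2-fold higher in treated liver and 589 (4.91%) at least 2-fold lower. The same rule applied to the 2 control arrays gave 246 genes higher (2.05%) and 370 lower (3.09%) at day 10 than at day 7. The excess over the controls was larger among large differences, since 156 genes were 4-fold higher and 122 4-fold lower at day 10, against 41 and 67 between the controls. At 16-fold the counts were 17 and 15 at day 10, against 0 and 2 between the controls. The spread between the controls depended on brightness, and over 5 bins of genes by brightness its 99th percentile ran from 2.54 (log2) in the dimmest bin to 1.17 in the next to brightest. Taking that percentile in each bin as the yardstick, 445 genes (3.71%) differed by at least 2-fold and by more than the yardstick, 237 higher and 208 lower. Yardstick and day 10 difference share the day 10 control array. The bins were set by the mean of all 4 arrays. A gene dim on the controls and high in treated liver can thus get the yardstick of a brighter bin. Of the 445 genes, 334 were also at least 2-fold beyond both control arrays in the same direction. Against both control arrays at once, 296 genes (2.47%) were at least 2-fold higher on the day 10 treated array and 384 (3.2%) at least 2-fold lower. Thus 42.3% of the higher and 65.2% of the lower genes also cleared the day 7 control, and values against that array are given below for several genes and lists.

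**Figure D1:**
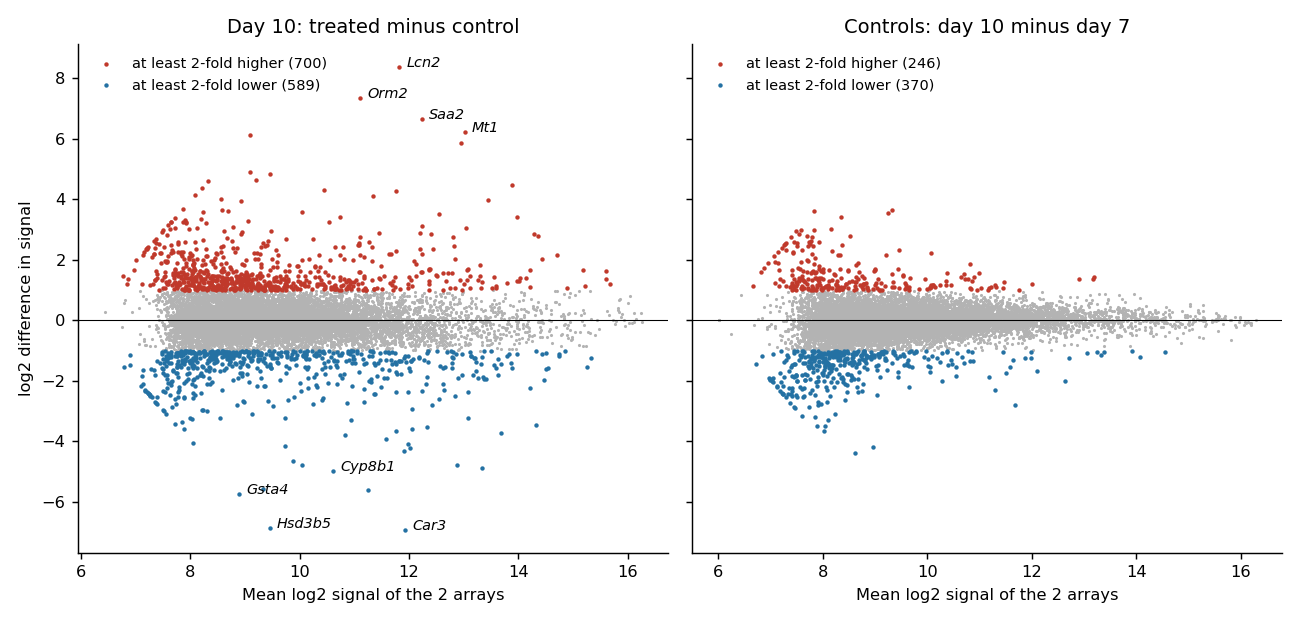
Log2 difference of each of the 11993 kept genes against its mean log2 signal, for treated minus control at day 10 (left) and for the 2 control arrays (right); red and blue points are genes at least 2-fold apart. The day 10 panel has 700 higher and 589 lower genes against 246 and 370 between the controls, and its tails reach 8.37 and -6.91.

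The genes highest at day 10 were secreted acute phase proteins and metallothioneins. Lcn2, which binds bacterial iron carriers, read 755.1, 199, 30636 and 66002, a 332-fold difference at day 10. Orm2, an orosomucoid, read 649.5, 171.3, 12193 and 28120 (164-fold), and Saa2, a serum amyloid A, read 1355.5, 478.7, 19853 and 48505 (101-fold). For all 3 genes the treated day 10 array was the highest and the day 10 control the lowest of the 4. The day 10 control lay 3.79-fold below the day 7 control for Lcn2 and for Orm2 and 2.83-fold below for Saa2. Against the day 7 control the treated day 10 signal was 87.4-fold higher for Lcn2, 43.3-fold for Orm2 and 35.8-fold for Saa2. The same held for Saa1, 22.3-fold higher against the day 10 control and 5.56-fold against the day 7 control. Saa1 and Saa2, like the orosomucoid genes, are close in sequence, and their probe sets may share signal.

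Other genes stood nearly as far above one control as above the other. Mt1, a metallothionein that binds zinc and other metals, read 1058.5, 953, 43842 and 72079, which was 75.6-fold above the day 10 control and 68.1-fold above the day 7 control. Mt2 read 1238.1, 1033.4, 35381 and 60031, 58.1-fold and 48.5-fold above them. Il1r1, the signalling receptor of interleukin 1, read 133.8, 117.8, 2330.1 and 2914.5, a 24.7-fold difference at day 10. Here both treated arrays were far above both controls, and the controls differed by at most 1.2-fold for all 3 genes by their brightest probe sets. A dimmer probe set of Mt1 read 186.8, 24.5, 655.6 and 3257.4, so that its controls lay farther apart, with the day 10 control under the floor. It differed by at least 5.65 (log2) at day 10 and by 1.81 at day 7. The neutrophil protease gene Prtn3 lay at the floor on both control arrays and read 1540.9 and 4543.7 on the treated ones, at least 70.2-fold higher at day 10. Il18bp, a secreted inhibitor of interleukin 18, was at least 24.2-fold higher at day 10, with the day 10 control at the floor.

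Of the 27 kept acute phase genes, 19 were at least 2-fold higher at day 10 and all 19 cleared both controls, beside 5.84% and 2.47% of all kept genes. The list median was 1.67 (log2) at day 10 and 1.4 at day 7, against 0.01 and -0.06 over all kept genes. Its day 10 effect was larger than its day 7 effect in 24 of the 27, beside 6367 of all 11993 kept genes. Between the controls, 5 of the 27 were at least 2-fold lower at day 10 than at day 7, beside 3.09% of all kept genes. Steap4, a metal reductase, read 2419.1, 1768.2, 6280 and 20485, so that the treated day 10 array stood 3.26-fold above the treated day 7 array. The exception in the list was Hamp, the iron hormone hepcidin, at 50159, 55852, 2438.8 and 1915.8, a 29.2-fold lower signal at day 10. Hamp2, close to it in sequence, was 27.7-fold lower.

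**Figure D2:**
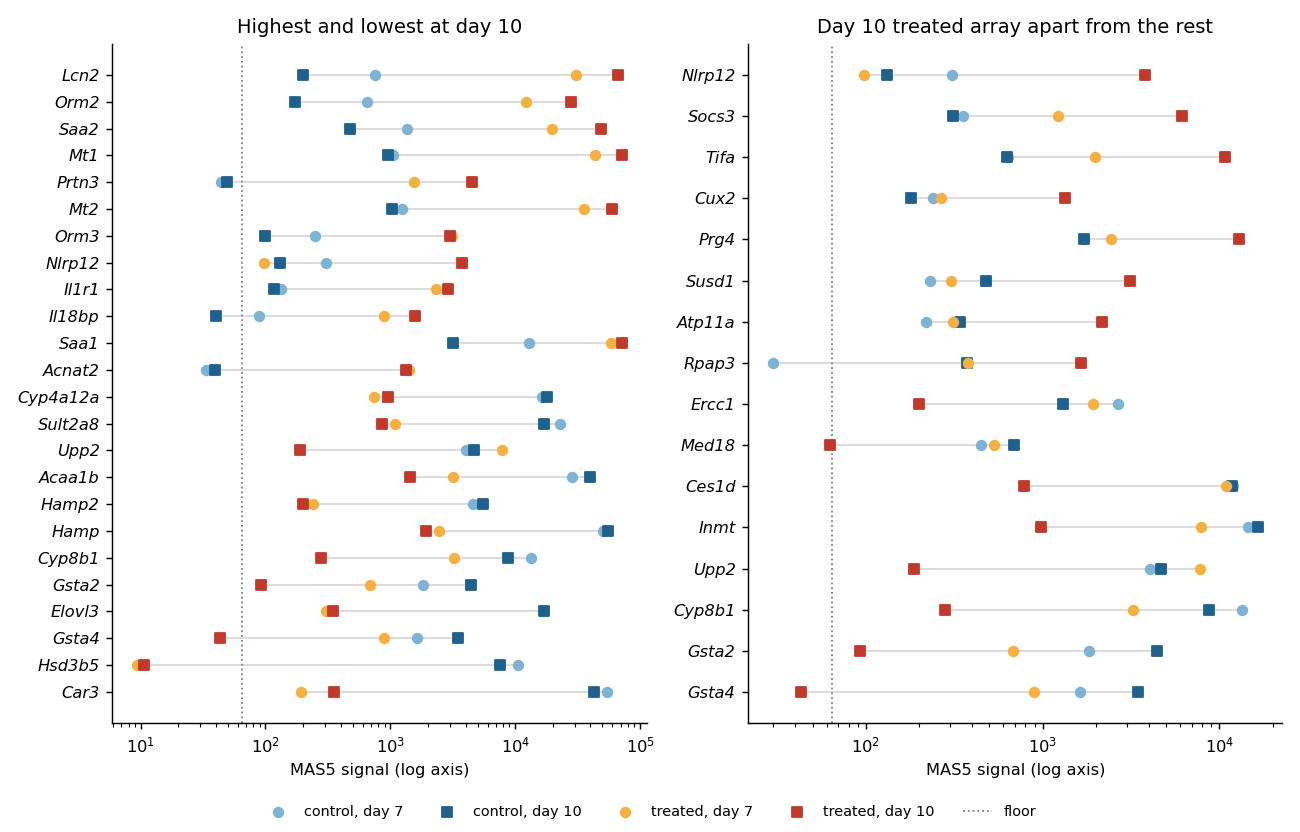
Array signal (log axis) of the 12 highest and 12 lowest genes at day 10 (left) and of the 16 genes whose treated day 10 array stood farthest from the other 3 arrays (right), 1 point per pooled array; the dotted line is the floor of 64.7 units. Lcn2, Orm2, Saa2 and Saa1 are lower on the day 10 than on the day 7 control, whereas for Ces1d and Prg4 3 arrays lie close together and the treated day 10 array apart.

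The sequences just before the start of some of these genes were searched for the motifs of factors known to act on acute phase and metal-responsive genes. The letters were TTGCNNAA for C/EBP, TGCNCNC for the metal response factor and TTCNNNGAA for STAT. For NF-kB they were GGG and CC with any 5 bases between them, and a stricter form, contained in the first, in which the last 3 of those 5 are T. Both strands of the 250 bases before each start were read, in RefSeq's promoter table of build GRCm38.p6. Of the 12 highest genes, 10 held the C/EBP letters, which 9.56% of the table's 32851 windows hold. The metal response letters were in 9 of the 12 (44.4% of windows), the loose NF-kB letters in 6 (45.8%), the STAT letters in 1 (7.02%) and the strict NF-kB letters in 0 (1.41%). Of the 12 lowest genes 8 had a window, of which 1 held the C/EBP letters, 3 the metal response letters, 2 the loose NF-kB letters, 2 the STAT letters and 0 the strict NF-kB letters. Of the 8 genes farthest above the other 3 arrays, 7 had a window. Among these, 1 held the C/EBP letters, 7 the metal response, 3 the loose NF-kB and 2 the STAT letters. Of the 8 farthest below, 6 had a window, and 0 held the C/EBP, 4 the metal response, 1 the loose NF-kB and 0 the STAT letters. The 10 genes with C/EBP letters included Saa1 with Saa2 and Orm2 with Orm3, which are close in sequence. A gene with several windows was counted where any held the motif, whereas the shares are per window. A match describes letters and is neither a site nor a cause.

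The 5 windows printed were picked after the matches were seen, Lcn2, Orm2 and Saa2 for the largest differences, Mt2 for its metal response letters and Socs3 for its STAT letters. Each runs 5′ to 3′ along the gene's strand and ends at the base before the start. Capitals mark the C/EBP letters in Lcn2, Orm2 and Saa2, the loose NF-kB letters also in Lcn2 and Saa2, the metal response letters in Mt2 and the STAT letters in Socs3.
Lcn2 (chr2:32387740-32387989, minus strand): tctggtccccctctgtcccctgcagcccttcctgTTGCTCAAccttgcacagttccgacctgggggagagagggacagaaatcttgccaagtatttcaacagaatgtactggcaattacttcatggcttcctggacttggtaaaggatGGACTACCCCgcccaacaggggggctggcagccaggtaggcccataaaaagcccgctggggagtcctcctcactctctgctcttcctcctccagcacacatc
Orm2 (chr4:63362199-63362448, plus strand): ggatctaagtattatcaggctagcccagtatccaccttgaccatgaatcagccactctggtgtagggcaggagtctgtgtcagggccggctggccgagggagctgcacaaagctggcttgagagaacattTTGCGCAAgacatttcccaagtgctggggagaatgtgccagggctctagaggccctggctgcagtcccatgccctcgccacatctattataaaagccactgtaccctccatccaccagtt
Saa2 (chr7:46751583-46751832, plus strand): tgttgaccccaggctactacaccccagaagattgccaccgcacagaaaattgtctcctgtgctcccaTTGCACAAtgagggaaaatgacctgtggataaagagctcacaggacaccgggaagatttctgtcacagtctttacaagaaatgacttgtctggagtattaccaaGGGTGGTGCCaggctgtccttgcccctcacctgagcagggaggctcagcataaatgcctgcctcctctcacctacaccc
Mt2 (chr8:94172368-94172617, plus strand): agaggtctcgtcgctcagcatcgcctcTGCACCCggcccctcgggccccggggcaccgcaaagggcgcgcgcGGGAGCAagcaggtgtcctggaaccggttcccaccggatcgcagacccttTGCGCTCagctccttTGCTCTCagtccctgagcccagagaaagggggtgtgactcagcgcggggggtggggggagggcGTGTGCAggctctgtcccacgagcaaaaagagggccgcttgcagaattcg
Socs3 (chr11:117969367-117969616, minus strand): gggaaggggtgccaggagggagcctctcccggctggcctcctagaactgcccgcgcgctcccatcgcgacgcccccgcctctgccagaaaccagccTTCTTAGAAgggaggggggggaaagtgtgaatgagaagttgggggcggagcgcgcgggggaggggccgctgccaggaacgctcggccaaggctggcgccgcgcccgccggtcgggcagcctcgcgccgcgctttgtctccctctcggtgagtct
Mt2 held 5 metal response matches in this window, and the nearest ended 44 bases before the start. The C/EBP letters ended 209 bases before the start in Lcn2, 113 in Orm2 and 176 in Saa2.

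Some genes set the day 10 treated array apart from all the rest. It was at least 2-fold above the other 3 arrays for 72 genes (0.6%) and at least 2-fold below them for 189 (1.58%). The like counts for each other array are not given here, so these 2 counts have no yardstick of their own. The adaptor Tifa, which links innate immune receptors to NF-kB, read 637.9, 625.2, 1976.8 and 10759. Socs3, the feedback inhibitor of cytokine signalling through STAT3, read 354.5, 312.7, 1224.9 and 6166.9. Both were intermediate on the treated day 7 array and highest at day 10, 17.2-fold above the day 10 control for Tifa and 19.7-fold for Socs3. The other 2 probe sets of Socs3 differed by 3.94 and 5.42 (log2) at day 10, beside 4.3 for the brightest. Prg4, a secreted lubricating glycoprotein, read 1707.1, 1713.9, 2432.1 and 12834, 7.49-fold higher at day 10. Cux2, a transcription factor known as female-biased in mouse liver, read 240, 179.2, 266.6 and 1346.4. For Prg4 and Cux2 the treated day 7 array lay near the controls.

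Nlrp12, an innate immune regulator of the NLR family, read 307.1, 131.7, 97.3 and 3780.8, so that the treated array was the lowest at day 7 and the highest at day 10. Susd1 read 230.4, 475.7, 301.7 and 3106.5. Atp11a, a phospholipid flippase, was 6.39-fold above the day 10 and 9.95-fold above the day 7 control, but another of its probe sets differed by -0.01 (log2). Rpap3, a chaperone cofactor, was 4.43-fold above the day 10 control and at least 25.4-fold above the day 7 control, which lay at the floor. Chosen after their values were seen, Gas6, a ligand of the TAM receptor kinases, read 1802.5, 2195.6, 1821.9 and 8576.4, and Bcl3, a nuclear IkB protein, read 894.3, 711.7, 736 and 2448.4. Both were near level on the first 3 arrays and highest on the fourth.

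Stat3 and Il6st, upstream in the pathway that Socs3 inhibits, were also highest on the treated day 10 array. Stat3 read 2709.7, 2365.2, 5747.9 and 8546.7, 3.61-fold higher at day 10. Il6st, the shared receptor subunit of the interleukin 6 family, read 1498.4, 1264.5, 1913.5 and 3858.5, 3.05-fold higher, whereas the interleukin 6 receptor gene Il6ra differed by 0.15 (log2). Of the 16 kept genes of that list, 5 were 2-fold higher and 0 lower, beside 5.84% and 4.91% of all kept genes, with a median of 0.3. In the list of interleukin 1 and NF-kB regulators 7 of 22 were higher and 1 lower against the same shares, with a median of 0.5. The lower gene was the coreceptor Il1rap at -1.28, or 0.04 by another probe set.

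On the low side the genes apart at day 10 included several metabolic enzymes. Upp2, a uridine phosphorylase, read 4048.5, 4664.4, 7811.1 and 187.4, a 24.9-fold lower signal at day 10, and a second probe set gave -5.02 (log2) beside -4.64. Ces1d, a carboxylesterase of the endoplasmic reticulum, read 11973, 11839, 10946 and 785.1, 15.1-fold lower. Inmt, a methyltransferase of indole amines, read 14432, 16551, 7846.1 and 976.7, 16.9-fold lower. For Upp2 the treated day 7 array was the highest of the 4, and for Ces1d it lay near both controls. The other 2 probe sets of Ces1d gave -3.92 and -2.8 (log2). Cyp8b1, the sterol 12-alpha-hydroxylase of bile acid synthesis, read 13336, 8760, 3244.6 and 280.2, 31.3-fold lower, with the treated day 7 array between. Genes that are not enzymes of metabolism were among them too. Med18, a Mediator subunit, was at least 10.7-fold below the day 10 and at least 6.91-fold below the day 7 control. Ercc1, a DNA repair endonuclease subunit, was 6.52-fold and 13.4-fold below them, but its other 2 probe sets differed by 0.05 and -0.1 (log2) at day 10.

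**Figure D3:**
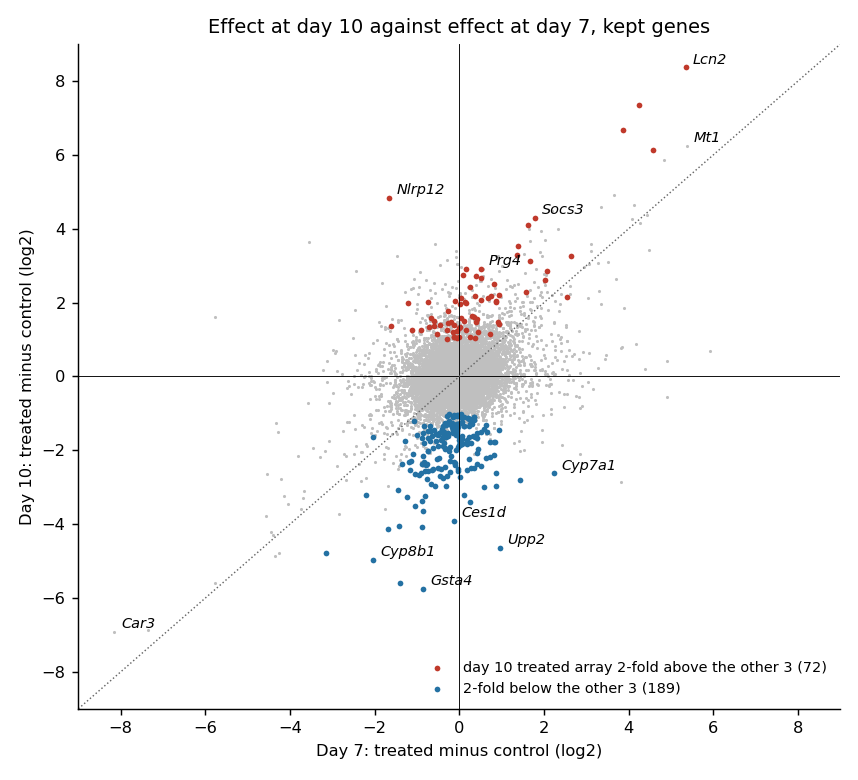
Treated minus control at day 10 against the same at day 7 for the 11993 kept genes (log2), with the line of equal effects dotted. Red and blue points are the 72 and 189 genes whose treated day 10 array lay at least 2-fold above or below the other 3 arrays, such as Socs3 and Prg4, or Gsta4, Upp2 and Ces1d, while Car3 and Mt1 lie near the line.

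Day 7 and day 10 effects overlapped in part. At day 7, 552 genes (4.6%) were 2-fold higher and 619 (5.16%) lower. The 185 genes higher at both days were 26.4% of the higher genes of day 10 and 33.5% of those of day 7. The 137 lower at both were 23.3% and 22.1%. Of the 296 genes above both controls at day 10, 162 (54.7%) were also 2-fold higher at day 7. Of the 384 below both controls, 122 (31.8%) were also 2-fold lower at day 7. Both sides of these last shares use the day 7 control array. Across kept genes the effects of the 2 days, which rest on different arrays, correlated with r = 0.35. Genes with like effects at both days included Car3, a carbonic anhydrase abundant in male rodent liver, at 54313, 42838, 191 and 355 (121-fold lower at day 10). Hsd3b5, a steroid dehydrogenase, read 10613 and 7544.1 in the controls and was floored in both treated pools, a difference of at least 117-fold at day 10. Elovl3, a fatty acid elongase, read 16697, 16908, 306.6 and 350.1. Of the 16 kept male-biased genes 13 were 2-fold lower at day 10 and 11 at day 7, beside 4.91% and 5.16% of all kept genes, with medians of -2.67 and -2.96. Of 9 kept female-biased genes 2 were 2-fold higher at day 10 and 4 at day 7, beside 5.84% and 4.6% of all kept genes. On either day 0 of the 9 were 2-fold lower, and their medians were 0.47 and 0.32. The sex of the pooled animals is not given, and its part in these values was not tested.

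Enzymes that conjugate drugs and lipid peroxidation products were lower at day 10. Gsta4, the glutathione transferase of 4-hydroxynonenal, read 1621.8, 3469.2, 892.1 and 42.9, at least 53.6-fold lower at day 10. Gsta2 read 1817.7, 4423.5, 682.4 and 92.3, 47.9-fold lower. For both the day 10 control was the highest array, and against the day 7 control they were at least 25.1-fold and 19.7-fold lower. Of 31 kept conjugating enzymes 16 were 2-fold lower at day 10 and 0 higher, all 16 below both controls, beside 4.91% and 3.2% of all kept genes. The treated day 10 array was 2-fold below the other 3 for 7 of the 31 (1.58% of all kept genes), among them Gsta3 at 12789, 14767, 10970 and 2453. The list median was -1.17 at day 10 and -0.35 at day 7, while the sulfotransferase Sult2a8 was lower by like amounts at both days (-4.31 and -4.4). The glutathione transferases are close paralogs, so their probe sets may share signal.

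Other enzyme and channel families also held genes that were low on the treated day 10 array. Among 19 kept carbonic anhydrases, aquaporins and carboxylesterases, 11 were 2-fold lower and 1 higher at day 10, where 4.91% and 5.84% of all kept genes were, and 5 were 2-fold lower at day 7 (5.16%). Their medians were -1.53 at day 10 and -0.65 at day 7. Ces1g read 4516.6, 3347.3, 4432.6 and 561.8, lowest on the treated day 10 array alone. Cytochromes P450 of families 1 to 3 were 2-fold lower in 7 of 31 at day 10, all 7 below both controls, beside 4.91% and 3.2% of all kept genes. The 1 higher gene, Cyp2c39, differed by 1.34 against the day 10 and by -0.61 against the day 7 control. Cyp2f2, abundant in periportal hepatocytes, read 38117, 41254, 26394 and 8678.8. Cyp2c29, known as inducible by phenobarbital, read 22642, 16951, 21853 and 6196.4. Of 22 kept NRF2 targets and glutathione synthesis genes 5 were 2-fold lower (4.91% of all kept genes) and 0 higher (5.84%), and 4 were below both controls (3.2%). The day 10 difference was below 0 in 19 of the 22, beside 5927 of all 11993 kept genes. The microsomal epoxide hydrolase Ephx1 was 11.4-fold lower at day 10, at 10545, 17428, 5115.6 and 1534.3.

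Bile acid synthesis genes had a median of -0.5 at day 10 and 0.11 at day 7, and 2 of 18, Cyp8b1 and Cyp7a1, were 2-fold lower at day 10, beside 4.91% of all kept genes. Cyp7a1, the rate-limiting enzyme of the classic pathway, read 1587.2, 3372.9, 7478.3 and 545.8. The treated array was thus the highest of the 4 at day 7 and the lowest at day 10. Nr0b2, which encodes SHP, a repressor of both enzymes, read 1049.2, 1401.7, 1180.1 and 2765.8. Its day 10 difference of 0.98 (log2) fell short of 2-fold.

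Genes of amino acid catabolism and the urea cycle had medians of opposite sign at the 2 days. The median of 38 genes was -0.49 at day 10 and 0.26 at day 7. The effect was lower at day 10 than at day 7 in 35 of them, beside 5626 of all 11993 kept genes. At day 10, 5 were 2-fold lower, 3 of them against both controls, and 1 was higher, beside 4.91%, 3.2% and 5.84% of all kept genes. The urea cycle enzyme Otc read 17404, 21316, 9992.1 and 5589.1, and Asl read 9061.6, 10989, 23906 and 5068.4. The methyltransferase Gnmt read 40652, 40400, 51305 and 18802. For Asl and Gnmt the treated array was the highest at day 7 and the lowest at day 10.

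Oxidative phosphorylation subunits were lower by small amounts, with a median of -0.59 at day 10 and -0.14 at day 7. At day 10, 38 of 39 differed below 0, beside 5927 of all 11993 kept genes. Only 2 of the 39, Uqcrfs1 (-1.04) and Ndufa5 (-1.02), were 2-fold lower, where 4.91% of all kept genes were. A second probe set of Ndufa5 gave -0.55. Against the day 7 control the list median was -0.35 and neither gene reached 2-fold. Glucose handling genes included Slc2a2, the hepatocyte glucose transporter GLUT2, at 5824.6, 5172.7, 6588.8 and 1449.2, 3.57-fold lower on the treated day 10 array alone. Igfbp2, which binds insulin-like growth factors, read 8608.7, 6547.3, 14139 and 1910.1, highest at day 7 and lowest at day 10 in treated liver. Igfbp1, of the same family, was 8.36-fold higher at day 10 and 3.27 (log2) at day 7.

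Chaperones of the endoplasmic reticulum and unfolded protein response genes had a median of 0.66 at day 10 against -0.15 at day 7. The day 10 difference was above 0 in 24 of 27, beside 6063 of all 11993 kept genes. Of the 27, 7 were at least 2-fold higher and 0 at least 2-fold lower, beside 5.84% and 4.91% of all kept genes. The disulfide isomerase Pdia6 read 4995, 4092, 3160.5 and 12175, and Sdf2l1, a cofactor of the chaperone BiP, read 575.1, 699, 578.5 and 1764.3. Manf, a secreted factor of stressed cells, read 2590.1, 2800, 2574.9 and 5864.6, and by these probe sets all 3 were highest on the treated day 10 array. A dimmer probe set of Pdia6 read 626.3, 387, 345.1 and 461.4, highest on the day 7 control, and differed by 0.25 (log2) at day 10. Hspa5, which encodes BiP, was 1.93-fold higher and Xbp1, a transcription factor of the response, 2.49-fold, or 1.95-fold against the day 7 control. Derl3 was 7.22-fold higher against the day 10 control but 1.41-fold against the day 7 control. Of the 7 genes, 4 cleared both controls, beside 2.47% of all kept genes.

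**Figure D4:**
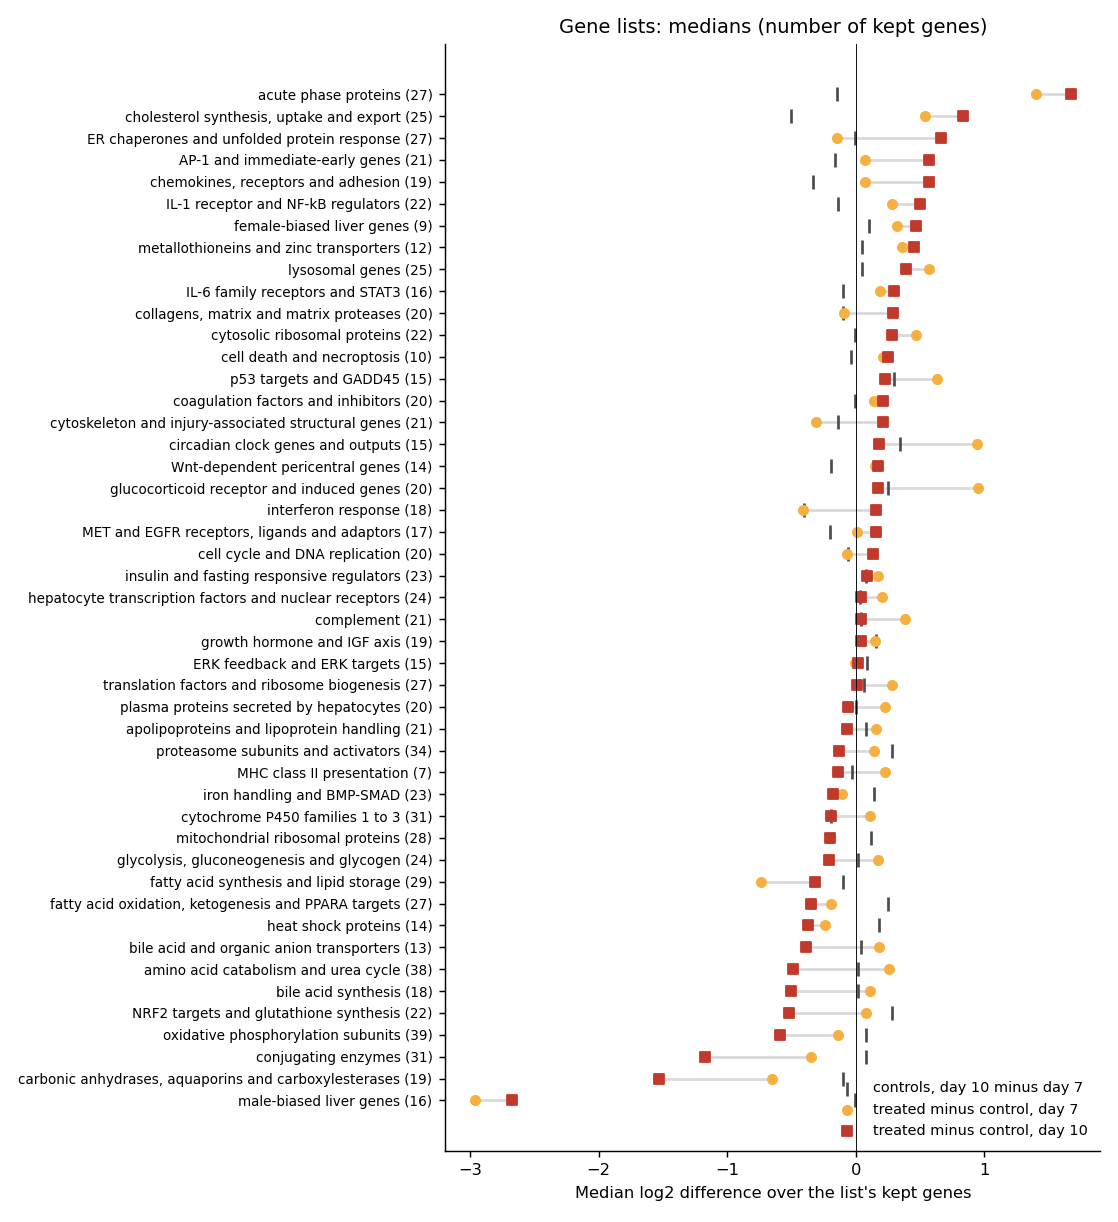
Median log2 difference over the kept genes of each of the 47 pathway lists, for treated minus control at day 10 (squares) and day 7 (circles) and for the controls (ticks), with the number of kept genes in brackets. The day 10 medians run from -2.67 for male-biased genes to 1.67 for acute phase genes, and conjugating enzymes and endoplasmic reticulum chaperones lie farther from 0 at day 10 than at day 7.

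In the list of cholesterol synthesis, uptake and export the day 10 counts depended on the control. Of 25 kept genes 12 were 2-fold higher (5.84% of all kept genes), but 4 cleared both controls (2.47%). The 1 lower gene was the sterol exporter Abcg5, at -1.02 against the day 10 and -0.54 against the day 7 control. The list median was 0.83 against the day 10 and 0.52 against the day 7 control. Mvk, mevalonate kinase, read 568.3, 124.1, 2168.5 and 1902, 15.3-fold and 3.35-fold above them. Msmo1 read 7841.7, 2456.6, 16928 and 12663, and for both genes the treated signal was lower at day 10 than at day 7. The list of fatty acid oxidation and PPARA targets went from a median of -0.35 to 0.07 when the day 7 control was used, and so changed sign with the control used. Its lowest members did not depend on the control in this way. Of its 27 kept genes 9 were 2-fold lower at day 10 and 0 higher, beside 4.91% and 5.84% of all kept genes. Below both controls were 8 of the 27 (3.2% of all kept genes). Acaa1b was 27.5-fold below the day 10 and 19.6-fold below the day 7 control. Junb, a component of AP-1, read 245.1, 94.9, 761.2 and 1518.4, 16.0-fold above the day 10 and 6.2-fold above the day 7 control.

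Markers of other cells moved with these groups. Of 16 kept macrophage markers 11 were 2-fold higher at day 10 and 7 cleared both controls, beside 5.84% and 2.47% of all kept genes. Their summed signal was 27485, 16556, 57239 and 57297, so that the treated arrays were level with each other and the day 10 control was the lowest. The list median was 1.49 at day 10 (0.98 against the day 7 control), 0.94 at day 7 and -0.67 between the controls. The Kupffer cell marker Clec4f read 1837.2, 1410.4, 3633.4 and 3765.3, and Cd5l, a protein secreted by macrophages, 5017.3, 2007, 9617.6 and 14525. In bulk RNA a change in the number of cells of a type and in the RNA per cell cannot be told apart. The neutrophil list summed to 5576, 4940, 42852 and 81654, but on the treated arrays most of this was Lcn2, which hepatocytes also make. Of the 12 kept neutrophil markers 6 were 2-fold higher at day 10 and 5 cleared both controls, with a median of 1.11, beside 5.84% and 2.47% of all kept genes. Besides Lcn2 and Prtn3 these were S100a8 at 3.58 (log2), S100a9 at 2.63, Chil1 at 1.65 and Csf3r at 2.44, which was 0.87 against the day 7 control. Among the other granule genes, Camp was at the floor on all 4 arrays, while Ltf and Mpo differed by -0.01 and 0.07 at day 10. Prtn3, at the floor on both controls, passed the brightness filter only through the treated arrays, whereas Camp did not pass it. The neutrophil counts therefore lean towards higher genes.

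B and plasma cell markers were 2-fold higher in 5 of 10 at day 10 and lower in 1, Cd79b at -1.03, and 4 cleared both controls, beside 5.84%, 4.91% and 2.47% of all kept genes. The B cell markers Cd79a and Ms4a1 differed by -0.7 and -0.16 at day 10. The list median was 0.87 at day 10 and 0.14 at day 7. The summed signal of the list was 26451, 22242, 36497 and 46215, but most of it on each array was Xbp1 and Sdc1. Xbp1, counted also among the unfolded protein response genes, read 13021, 10180, 15264 and 25376, and Sdc1 differed by -0.12 at day 10. Jchain, the joining chain of polymeric antibodies, read 106.4, 150.1, 1204.5 and 1282.1 (8.54-fold at day 10), and Ighm, the heavy chain of IgM, read 2715.6, 1016.8, 9577.8 and 7610.5 (7.48-fold). By these probe sets the treated arrays lay above both controls on either day for both genes. Jchain and Iglv1, both counted as higher, read under 204 units on both controls and passed the brightness filter only through the treated arrays. Other probe sets of Ighm differed by 2.96, 2.13, 0.42, 0.37 and 0.1 (log2) at day 10. The one at 0.37 read 484.1, 583.6, 456.9 and 752.2, with the treated array below both controls at day 7. Among sinusoidal endothelial markers 3 of 15 were at least 2-fold higher (median 0.37), but only Oit3 (2.34-fold) cleared both controls, beside 5.84% and 2.47% of all kept genes. Pecam1 was 4.74-fold above the day 10 but 1.42-fold above the day 7 control, and Eng 2.13-fold and 1.44-fold. The part of all these cells in the acute phase and NF-kB results above was not tested. T and NK cell markers summed to between 3252 and 4008 on the 4 arrays, but the largest part was Cd8a, at 1809.3, 1581.7, 1734.7 and 2373.6. Of the 4 kept, Ncr1 alone was 2-fold lower at day 10 (-1.11) and 0 were higher, beside 4.91% and 5.84% of all kept genes. Under the brightness filter, Nkg7 was 5.04-fold lower, while Cd3g was 2.68-fold and Gzmb at least 3.51-fold higher.

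Some large day 10 differences rested on the day 10 control array. Among genes 2-fold apart at day 10 but not against the day 7 control, Mroh2a read 2104.5, 116.4, 180.3 and 1444.6, and Shh, a hedgehog ligand, read 891.3, 78.5, 320.5 and 753.9. Bcl6, a transcriptional repressor, read 278.5, 1249.5, 117 and 280.5. For all 3 the day 10 control stood apart from the day 7 control, by 18.1-fold for Mroh2a, 11.4-fold for Shh and 4.49-fold for Bcl6. Their day 10 differences of 3.63, 3.26 and -2.16 (log2) changed to -0.54, -0.24 and 0.01 against the day 7 control. A dimmer probe set of Bcl6 read 275, 467.2, 394.2 and 47.8, lowest on the treated day 10 array, which lay at the floor, and at -2.85 (log2) against the day 10 control. By that probe set the treated day 10 array was thus below both controls.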

How the data were processed

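The submitters deposited 1 table of linear signal intensity per probe set for 4 Affymetrix mouse arrays, made with MAS5, per the submitters' processing notes. Its version was not found in the labels. Each array's mean after trimming 2% was 500.0, and array medians ran from 210.5 to 223.9. Each array was labelled from 6 µg of total RNA, per the labels' protocols.

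Of 45101 probe sets, 64 were array controls, and 34945 had 1 gene symbol in the platform annotation, 932 several and 9160 none. Symbols were checked in RefSeq's gene table (GRCm38.p6, 99.4% matched). Low signals were raised to the 25th percentile of all values before taking log2, and the brightest probe set stood for its gene. Kept genes had a mean log2 over 7.67, which was the probe set median. Since each side had 1 array, differences were sized by a 2-fold rule with no test. The rule was first run on simulated arrays with known changes and normally distributed noise, without the 25th percentile floor or the brightness filter. That run checked the counting only and does not show how the rule performs on these arrays. The yardstick was the 99th percentile of the absolute control difference in 5 bins of brightness. Python 3.11.15, numpy 2.4.6, pandas 2.3.3 and matplotlib 3.10.9 were used.

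The comparison, the 61 gene lists (47 of pathways, 14 of cell markers) and the rules were chosen with earlier results of these data known. Predicted genes were passed over. The genes named by rule were the 12 highest and 12 lowest at day 10 among those 2-fold beyond both controls, the 8 highest and 8 lowest by the gap to the other 3 arrays, up to 2 per list and direction, the 4 highest and 4 lowest that missed 2-fold against the day 7 control, the 3 highest and 3 lowest with opposite effects at the 2 days, 4 under the filter, and Met, Egfr, Erbb2 and Erbb3. The text gives a choice of these. Other list members were named after their values were seen, and so were the printed promoters. Alternatives were other normalizations, floors, filters, size rules and yardsticks, the mean of probe sets, other probe sets, and the day 7 control.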

Additional observations from a re-analysis of the deposited data

Results flagged for a closer look

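Opposite effects at the 2 days, each at least 2-fold, were found for 36 genes higher at day 10 and lower at day 7 and for 21 genes of the reverse kind. With 1 array per side the difference between the days was not tested. The 3 largest of each kind are given as the day 10 effect minus the day 7 effect on the log2 scale. The synaptic vesicle GTPase gene Rab3a differed by 7.39, with signals of 8541, 1239.8, 156.2 and 3795.7 on the control day 7, control day 10, treated day 7 and treated day 10 arrays. Mroh2a differed by 7.18, and Nlrp12 by 6.5. The ephrin receptor gene Epha2 differed by -6.68, at 78.6, 546.6, 1107.7 and 74.9. Spaca4, at 67.6, 542.3, 484.3 and 127, differed by -4.94, and Cyp7a1 by -4.86. The 2 control arrays themselves were 6.89-fold apart for Rab3a, 18.1-fold for Mroh2a, 6.95-fold for Epha2 and 8.02-fold for Spaca4, against 2.33-fold for Nlrp12 and 2.13-fold for Cyp7a1.

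Probe sets that entered no gene count were sized by the same rule. There were 3596 probe sets without a single gene symbol and above the brightness filter. Of these, 89 were at least 2-fold higher on the day 10 treated array than on both controls, and 129 were at least 2-fold lower. Among all kept genes the shares were 2.47% and 3.2%, so that these counts do not set such probe sets apart.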

How the results depend on the processing

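The counts of genes past a size rule depended mostly on the filter and on the rule. Without the filter on dim genes, 1345 genes were higher and 1133 lower at day 10, 698 and 901 between the controls, 1102 and 1236 at day 7, 623 above and 628 below both controls, and 229 above and 288 below the other 3 arrays. With the filter at the 75th percentile these counts were 322 and 310, 73 and 91, 295 and 243, 174 and 210, and 46 and 82. A 1.5-fold rule gave 1750 and 1618, 870 and 1147, 1449 and 1841, 839 and 1024, and 346 and 508. A 3-fold rule gave 246 and 197, 76 and 124, 213 and 193, 101 and 158, and 17 and 73. Averaging all probe sets of a gene gave 160 genes higher between the controls and 122 below the other 3 arrays. The yardstick count was 296 with a 3-fold rule and 994 at the 95th percentile. All other alternatives run on these counts, including quantile normalization, equal medians and both floors, stayed within 1.5 times. Equal medians gave 617 higher and 666 lower genes at day 10, so that 48.1% rather than 54.3% were higher, and the day 7 control gave 608 and 631. Of 61 list medians, 14 changed sign under at least 1 setting. For 3 of them the reported median was beyond the spread between the controls (the list's median absolute control difference over the square root of 2): stellate cells to -0.03 with the filter at the 75th percentile, muscle to -0.47 with averaged probe sets, and fatty acid oxidation to 0.07 against the day 7 control. The other 11 had medians between -0.13 and 0.23, and lay between -0.32 and 0.16 after the change. Against the day 7 control the log2 difference of genes 2-fold apart at day 10 changed sign for Bcl6 (0.01), Cry2 (-0.67), Cyp2c39 (-0.61), Fgf21 (0.15), Mroh2a (-0.54), Nop56 (-1.08), Rab3a (-1.17), Shh (-0.24), Spaca4 (0.91) and Tcf24 (0.04), and of smaller differences for Egfr (0.45) and Erbb2 (-0.89). In another probe set it changed sign for Atp11a (-0.01), Cebpd (-0.21), Ercc1 (0.05), Il1rap (0.04), Nop56 (-0.3) and Tfrc (-0.11), and for Egfr in all 5 others (0.26 to 0.76) and in the mean of its probe sets (0.37). The cause was not tested. A single gene's difference does not depend on the filter and was not recomputed under it. No paired analysis was possible because the result comes from no test. Each side is 1 pooled array, so that dim genes, where the controls differ most, carry the least certain values.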

Other observations

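Several clock output genes were high in treated liver at day 7 and not at day 10. Usp2, a ubiquitin protease driven by the clock, read 88.2, 547, 2630 and 375 on the control day 7, control day 10, treated day 7 and treated day 10 arrays. The transcription factor Dbp read 332.4, 324.6, 1172.5 and 194.1, and Tef read 1664.1, 2417.9, 5900.4 and 1776.4. The median of 15 clock genes was 0.18 at day 10 and 0.94 at day 7, and 0.34 between the controls. At day 7, 7 of the 15 were 2-fold higher, and at day 10, 3 were, of which 2 cleared both controls, where 4.6%, 5.84% and 2.47% of all kept genes did so. The 3 were Bhlhe40, at 915.9, 673.2, 2123.2 and 2288.1 (3.4-fold at day 10), Nfil3 (2.28-fold) and Cry2 (2.56-fold, but -0.67 on the log2 scale against the day 7 control). The hour at which livers were taken was not found in the labels, and its part in these values was not tested.

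Genes under the brightness filter were left out above. Of these 6200 genes, 327 were at least 2-fold higher and 244 at least 2-fold lower on the day 10 treated array than on both controls. Among kept genes the shares were 2.47% and 3.2%. The eye lens crystallin gene Crybb3 read 118, 82.9, 47.9 and 2679.3, and Nucb2, which encodes the precursor of nesfatin, lay at the floor on the first 3 arrays and read 767.1 on the treated day 10 array. Ptpn23 read 628.3 there, with both controls at the floor, and the sulfotransferase Sult3a1 read 381.3 and 914 on the treated arrays with both controls at the floor.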
